A study of Drosophila melanogaster with 11 samples.

Results

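Gene expression was compared between the fat bodies of MU10 and MU17, which are isofemale strains of Drosophila melanogaster from a German population. An isofemale strain is a laboratory line founded by a single wild-caught female, so each strain carries its own sample of the natural variation of its population. Both strains were represented by female larvae at the late wandering stage of the third instar, raised at the same controlled density and staged by the color of their guts, with no treatment and no engineered allele in either. The comparison used the 2 MU10 libraries and the 2 MU17 libraries, which the labels define, out of 11 poly-A RNA-seq libraries from 5 strains, and the remaining 7 libraries (MU12, MU14 and MU26) served to estimate the spread between replicates and to show which strain of the pair stood apart. Each strain is 1 line, so a difference between MU10 and MU17 is a difference between those lines and not between kinds of larvae. Each replicate was a pool of dissected fat bodies, and p-values measure the spread between such pools.

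The larval fat body carries out functions that vertebrates divide between liver and adipose tissue. It stores fat, glycogen and hexamerin proteins for metamorphosis, exports lipoproteins and trehalose into the hemolymph, detoxifies plant and microbial compounds, and secretes antimicrobial peptides under control of the Toll and Imd pathways. At the end of the wandering stage larvae no longer feed, the steroid hormone ecdysone is rising, and autophagy and the lysosomes of the fat body begin to turn over its cytoplasm. In RNA from a whole organ, fewer cells of a type and less RNA per cell cannot be told apart.

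The total count was 49582725 and 35748897 in MU10, and 41331149 and 40569870 in MU17. The label was checked against 9 fat body markers, all of which were detected, and together they held 361748 and 338279 counts scaled to a common library size (counts-per-million, CPM) in MU10, against 342186 and 303397 CPM in MU17. Fbp1, the receptor through which the fat body takes up hexamerins, had 22.9% and 20.8% of all counts in MU10 and 24.3% and 27.6% in MU17. Its level in CPM was 245043 and 219113 CPM in MU10, against 229861 and 237382 CPM in MU17, with libraries of the strains overlapping (log2 difference -0.01 ± 0.10, adjusted p = 0.96). Markers of hemocytes, midgut, epidermis, nervous system and female germ line had 0 of 26 tested members called by edgeR, with 2 at an unadjusted p below 0.05, 2 called by DESeq2 and 0 by limma-voom. The 4 tested midgut markers had a median log2 difference of 1.39 and a summed level of 7.56 and 5.06 CPM in MU10, against 2.38 and 1.27 CPM in MU17. Malpighian tubule markers had 1 of 3 tested members called higher in MU10, testis markers 1 of 2 called higher in MU17, and tracheal markers 1 of 6 called in each direction. Markers of the salivary gland, all called higher in MU17, and of muscle, with 2 of 13 called, are given further on.

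All values per library are CPM on library sizes scaled by TMM, a method that equalizes the bulk of genes, and CPM does not correct for gene length, so levels are compared between strains and not between genes. A log2 difference is that of MU10 over MU17, given with its standard error, and is positive where MU10 was higher. A gene was called when its p, adjusted over all tested genes, was below 0.05. Of 8415 tested genes, 1596 were called (19%), of which 775 were higher in MU10 (9.21%) and 821 were higher in MU17 (9.76%). The difference was at least 2-fold for 899 genes (10.7%), with 360 of them higher in MU10 and 539 higher in MU17. Differences of at least 8-fold were also more often toward MU17, with 61 genes higher in MU10 and 102 higher in MU17. The calls rested on 2 libraries a strain, and their number fell to 662 with MU10 replicate 1 left out, 664 with MU10 replicate 2 left out, 1032 with MU17 replicate 1 left out and 806 with MU17 replicate 2 left out. In all 4 of these fits, 466 of the 1596 calls were kept, 246 of them higher in MU10 and 220 higher in MU17. Calls of single genes given below were among the 466 unless their loss is stated or the gene is named as a mere member of a list or run.

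The direction of the calls varied with the level of the gene. Among the 3174 tested genes with a mean of 1 to 10 CPM over the strains, 162 were called higher in MU10 and 433 higher in MU17. Among the 941 genes between 100 and 1000 CPM, 206 were higher in MU10 and 30 were higher in MU17. Over the 1033 tested genes at 100 CPM or more, 25.7% were called, 22.2% higher in MU10 and 3.48% higher in MU17, and the median log2 difference was 0.24. Of the 40 most abundant genes among the 466 kept calls, 37 were higher in MU10 and 3 were higher in MU17. Upper-quartile scaling in place of TMM gave 612 calls higher in MU10 and 914 higher in MU17.

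**Figure D1:**
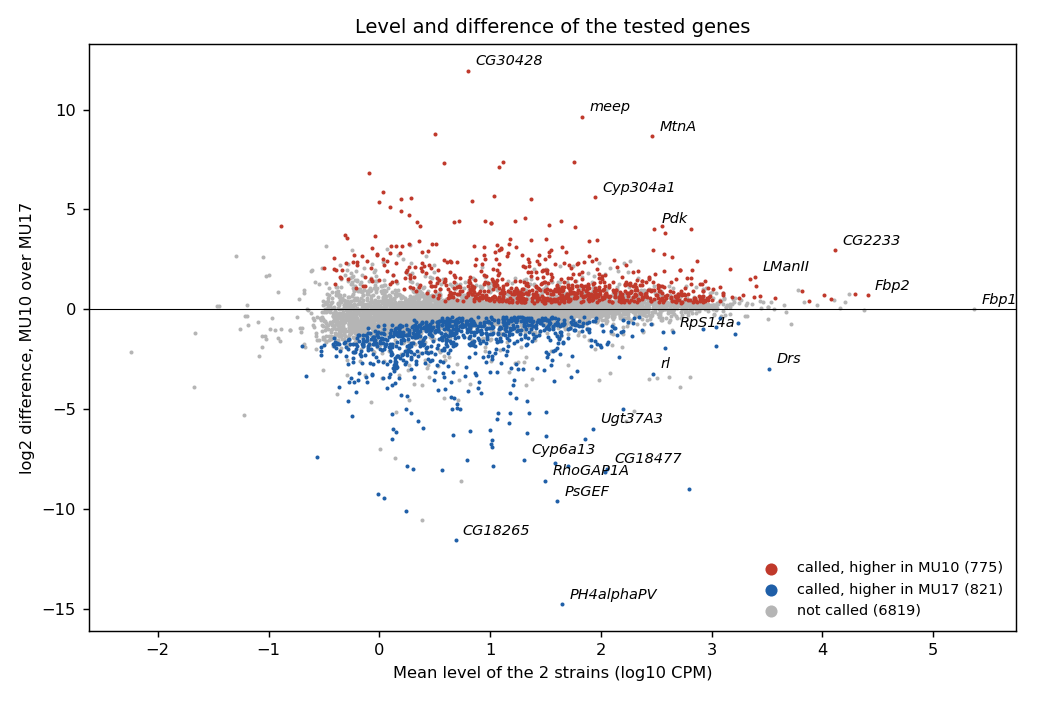
Each point is 1 of the 8415 tested genes, with its mean level over MU10 and MU17 on the x axis (log10 CPM) and its log2 difference, MU10 over MU17, on the y axis. Red points are the 775 genes called higher in MU10, blue points the 821 called higher in MU17, and gray points were not called. Blue points outnumber red ones at low levels, and red points outnumber blue ones above 100 CPM.

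Several genes were close to silent in one strain and well expressed in the other. CG30428 (chromosome 2R, 25251927 to 25254535, BDGP6.54) had 11.9 and 13.4 CPM in MU10, against 0 and 0 CPM in MU17, which made it at least 382-fold higher in MU10 at a floor of 3 counts over the MU17 libraries (adjusted p = 1.4e-06). The other strains resembled MU10, with means of 14.7 ± 1.11 CPM in MU12, 8.43 ± 0.484 CPM in MU14 and 14 ± 0.154 CPM in MU26 (SD, n = 2, 3 and 2), so MU17 was the single strain without counts at this gene. The gene meep (chromosome 3L, 1201871 to 1203036) had 155 and 114.5 CPM in MU10, against 0.229 and 0.106 CPM in MU17 (log2 difference 9.64 ± 0.35, adjusted p = 1.8e-06), and without MU17 replicate 1 its log2 difference was 10.25. MU26 was also low at meep, with 1.96 and 2.22 CPM, while MU12 had 53.1 and 51.1 CPM and MU14 had 21.6, 28.8 and 21.2 CPM. CG10738 (chromosome 3L, 13450770 to 13465539) showed the placement opposite to that of CG30428, because MU10 alone expressed it. Its level was 25.6 and 26.7 CPM in MU10, against 0.0917 and 0.212 CPM in MU17 (log2 difference 7.38 ± 0.31, adjusted p = 3.1e-06), and all 7 libraries of the remaining strains lay below 1 CPM, while its log2 difference without MU17 replicate 2 was 8.09.

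Among the 15 called genes with the highest CPM, the largest difference toward MU10 was that of CG2233 (chromosome X, 8035741 to 8037517), with 22637 and 23738 CPM in MU10, against 3729 and 2300.0 CPM in MU17 (log2 difference 2.94 ± 0.23, adjusted p = 1.7e-04). Both MU10 libraries were far above both MU17 libraries, and MU12, at 3144 ± 569.8 CPM, had the low level of MU17. CG12224 (chromosome 3R, 11980704 to 11982062) followed the same placement, at 708 and 644 CPM in MU10, against 35.5 and 40.1 CPM in MU17 (log2 difference 4.16 ± 0.13, adjusted p = 1.4e-06), with 19.5 ± 1.74 CPM in MU12. The methuselah-like receptor gene mthl3 was low in MU17 alone, with 55.2 and 61.6 CPM in MU10, against 4.86 and 5.47 CPM in MU17 (log2 difference 3.499 ± 0.14, adjusted p = 2.9e-06), and its relative mthl4 was called in the same direction (2.53 ± 0.30). Cftr, the ortholog of the human chloride channel gene, had 720.0 and 803 CPM in MU10, against 135 and 113 CPM in MU17 (log2 difference 2.62 ± 0.22, adjusted p = 2.0e-04). The GATA factor srp, which specifies fat body and blood cells, had 574 and 584 CPM in MU10, against 306 and 337 CPM in MU17, a smaller difference (log2 difference 0.85 ± 0.14, adjusted p = 0.0053).

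Toward MU17, 2 genes of chromosome X differed strongly. RhoGAP1A (chromosome X, 127449 to 140340), which codes for a GTPase-activating protein, had 0.238 and 0.0588 CPM in MU10, against 60.1 and 65.6 CPM in MU17 (log2 difference -8.60 ± 0.34, adjusted p = 2.5e-06). MU10 alone was near 0, since the other strains had means of 62.2 ± 1.37, 55.7 ± 4.23 and 82.7 ± 0.994 CPM in MU12, MU14 and MU26, and without MU10 replicate 1 the log2 difference was -9.98. PsGEF (chromosome X, 2367121 to 2387664), which codes for a guanine nucleotide exchange factor, had 0.108 and 0.0883 CPM in MU10, against 62.8 and 97.6 CPM in MU17 (log2 difference -9.61 ± 0.60, adjusted p = 3.9e-05). Here MU17 alone was high, and all 7 libraries of the remaining strains lay below 1 CPM.

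MU17 also stood alone for rl (chromosome 2R, 1071462 to 1125927), which codes for the ERK-type MAP kinase that acts below receptor tyrosine kinases. Its level was 58.9 and 54.4 CPM in MU10, against 517 and 553 CPM in MU17 (log2 difference -3.24 ± 0.11, adjusted p = 1.4e-06), and the other strains averaged 46.9 ± 0.259, 48.4 ± 1.67 and 51.7 ± 1.51 CPM in MU12, MU14 and MU26. The calpain family gene CalpC had 1.38 and 2.09 CPM in MU10, against 60.6 and 62.8 CPM in MU17 (log2 difference -5.16 ± 0.20, adjusted p = 2.1e-06), and fipi had 0.0648 and 0.0588 CPM in MU10, against 12.3 and 12.4 CPM in MU17 (log2 difference -7.56 ± 0.25, adjusted p = 1.4e-06). CG32017 on chromosome 4 had 0.518 and 0.324 CPM in MU10, against 79.3 and 123 CPM in MU17 (log2 difference -7.87 ± 0.41, adjusted p = 1.2e-05), and CaMKII on the same chromosome, a calcium-dependent kinase, had 53.9 and 51 CPM in MU10, against 178 and 169.6 CPM in MU17 (log2 difference -1.73 ± 0.10, adjusted p = 1.9e-05). For each of these genes both MU17 libraries lay above the 9 libraries of all other strains.

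MU10, in contrast, was the strain apart for CG18477 (chromosome 2L, 15661041 to 15662753) and CG31780 (chromosome 2L, 15696038 to 15697750). CG18477 had 1.01 and 0.736 CPM in MU10, against 304 and 146 CPM in MU17 (log2 difference -7.99 ± 0.44, adjusted p = 1.9e-05), and CG31780 had 0.346 and 0.382 CPM in MU10, against 104 and 49.5 CPM in MU17 (log2 difference -7.71 ± 0.44, adjusted p = 2.5e-05). The loci span the same number of bases, their levels moved in parallel across the libraries, and the counts of either one are uncertain if they are near-identical copies. Without MU17 replicate 1 the log2 differences were -7.39 and -7.11. Separately, 5 genes had 0 counts in both MU10 libraries and at least 1 CPM in each MU17 library, whatever their level in the other strains. CG18265 had 8.11 and 11.4 CPM in MU17 and was at least 261-fold lower in MU10 (adjusted p = 7.4e-04). Its means in MU12, MU14 and MU26 were 0.0117, 0.049 and 0.0158 CPM. CG7724 had 4.01 and 2.95 CPM in MU17 and was at least 93.1-fold lower in MU10 (adjusted p = 5.3e-04). Its means in MU12, MU14 and MU26 were 0.123, 0.15 and 0.0664 CPM. At both genes MU17 was therefore the strain apart. The gene slbo, for a C/EBP transcription factor, had 2.52 and 1.91 CPM in MU17 and was at least 59.3-fold lower in MU10 (adjusted p = 0.016), but its call was lost without MU10 replicate 1 (adjusted p = 0.082) and without MU10 replicate 2 (adjusted p = 0.067), with 1.2e-06 to 0.18 over the alternatives. PH4alphaPV and Sgs1 are described with the replicate difference and the glue genes.

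**Figure D2:**
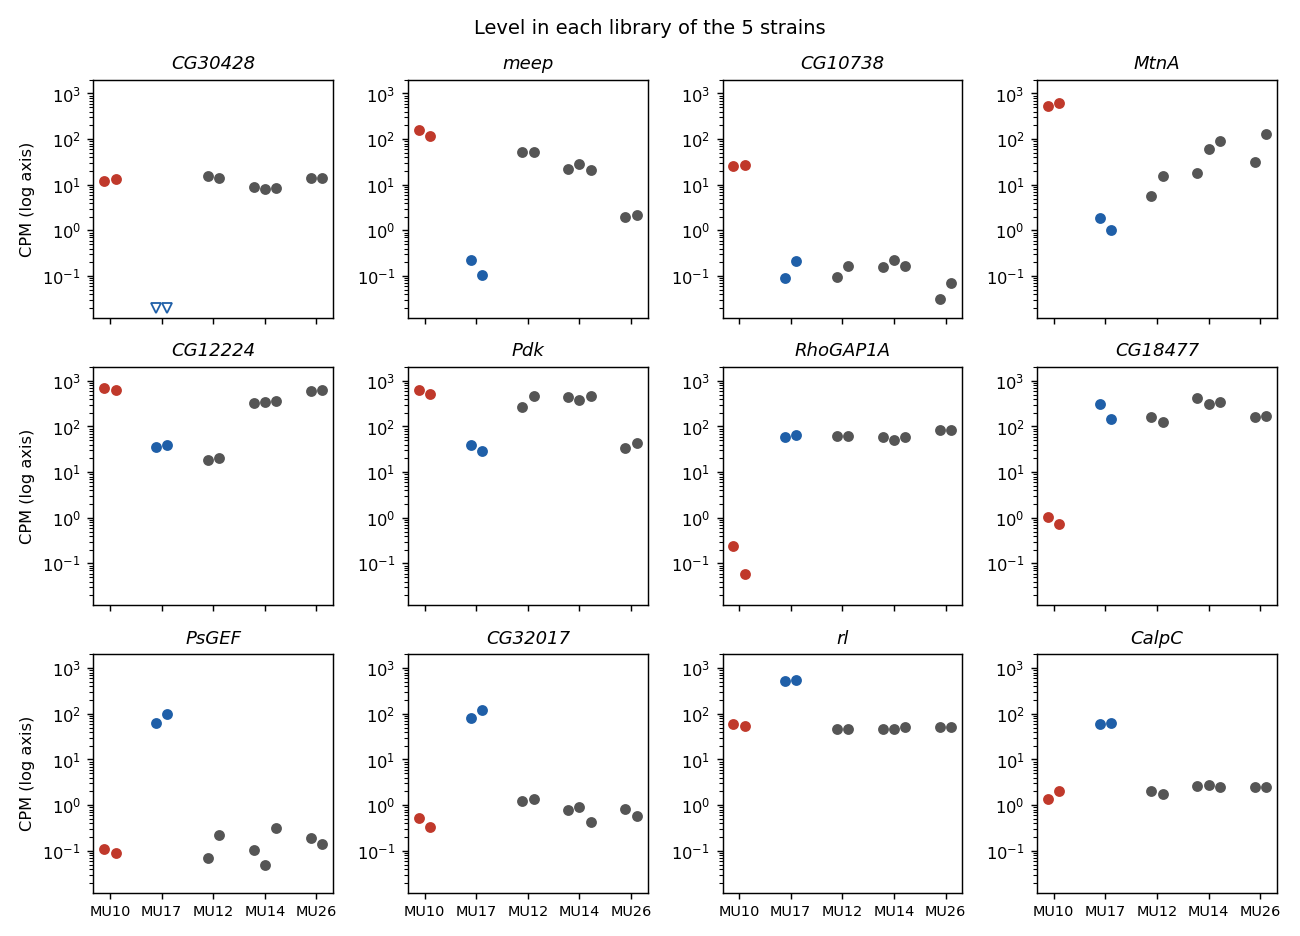
Each point is the level of a gene in 1 library (CPM, log axis), with MU10 in red, MU17 in blue and the strains MU12, MU14 and MU26 in gray. Open triangles at the bottom of a panel mark libraries with 0 counts. CG30428 is missing from MU17 alone and RhoGAP1A and CG18477 are near absent from MU10 alone, while PsGEF, CG32017, rl and CalpC are high in MU17 alone.

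Over the 1596 called genes, both MU10 libraries lay outside the range of the 9 other libraries for 618 genes, above it for 332 and below it for 286. Both MU17 libraries lay outside the range of the 9 others for 566 genes, above it for 298 and below it for 268. For 112 genes both strains lay outside, and for 524 genes neither did. Over all 8415 tested genes the numbers were 1147 for MU10 and 1119 for MU17, so the strains of this pair stood apart from the rest about equally often. The mean distance between MU10 and MU17 libraries, taken over log2 CPM of the tested genes, was 97.6 and ranked 7 of 10 pairs from low to high, within a range of 89.1 to 108 over the pairs.

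Most calls in a list of lysosomal genes were higher in MU10. Of 16 tested members, 9 at 100 CPM or more, 62.5% were called, 9 higher in MU10 and 1 higher in MU17, with a median log2 difference of 0.44. Over all tested genes 19% were called and the median was -0.017. Over those at 100 CPM or more, 25.7% were called, 22.2% higher in MU10, and the median was 0.24. Lysosomal alpha-mannosidases, which trim mannose from glycoproteins taken in for degradation, differed most. LManII had 3906 and 3602 CPM in MU10, against 1245 and 1175 CPM in MU17 (log2 difference 1.63 ± 0.12, adjusted p = 1.5e-04), and its direct neighbor LManI had 545 and 445 CPM in MU10, against 207 and 241 CPM in MU17 (log2 difference 1.14 ± 0.16, adjusted p = 0.0021). Both MU10 libraries were above both MU17 libraries at each gene. LManVI had 3.48 and 2.74 CPM in MU10, against 0.0229 and 0.106 CPM in MU17 (log2 difference 5.50 ± 0.56, adjusted p = 6.4e-04), with log2 differences of 4.81 with MU17 replicate 1 left out and 6.88 with MU17 replicate 2 left out. The cysteine protease gene CtsF had 309.9 and 402 CPM in MU10, against 185 and 176 CPM in MU17 (log2 difference 0.98 ± 0.17, adjusted p = 0.0063). Cln7, not a member of this list, was called higher in MU17. It had 2.7 and 2.47 CPM in MU10, against 31.5 and 29.2 CPM in MU17 (log2 difference -3.55 ± 0.18, adjusted p = 1.2e-05). CtsB, CtsL1, Hexo2, Lamp1 and Npc2a were called higher in MU10 and Hexo1 higher in MU17, but each of these calls was lost in at least 1 fit without a library. The list had 6 calls with MU10 replicate 1 left out, 4 with MU10 replicate 2 left out, 5 with MU17 replicate 1 left out and 4 with MU17 replicate 2 left out, all higher in MU10.

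Of 19 tested Atg and related genes of autophagy, 4 were called higher in MU10 and 0 higher in MU17, with a median log2 difference of 0.27. The share called, 21.1%, was near the 19% of all tested genes, and 2 of the 4 calls, Atg7 and Atg18b, were kept in all fits without a library. Atg7, the activating enzyme for the conjugation of Atg8 and Atg12, had 220.4 and 264 CPM in MU10, against 91.1 and 110.1 CPM in MU17 (log2 difference 1.27 ± 0.20, adjusted p = 0.004). Atg18b, of a family that binds phosphoinositides on forming autophagosomes, had 239 and 225 CPM in MU10, against 105 and 91.7 CPM in MU17 (log2 difference 1.24 ± 0.19, adjusted p = 0.0035). At both genes MU17 had the lowest levels of the 5 strains, and MU10 had the highest. Atg8a, the protein conjugated to autophagosome membranes, had 737 and 768 CPM in MU10, against 577 and 513 CPM in MU17 and was not called by edgeR (log2 difference 0.47 ± 0.15, adjusted p = 0.06), but was called by DESeq2 (0.47, adjusted p = 0.026). Atg1 and Atg17 were called in the full fit, and the list had 2 calls with MU10 replicate 1 left out, 3 with MU10 replicate 2 left out, 3 with MU17 replicate 1 left out and 2 with MU17 replicate 2 left out. The vacuolar ATPase, the proton pump that acidifies lysosomes, had 0 of 17 tested subunits called in the edgeR fit, with 2 at an unadjusted p below 0.05, 1 called by DESeq2 and 0 by limma-voom, and a median of 0.097.

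Metallothioneins, small cysteine-rich proteins that bind copper and other metals, gave some of the largest differences. MtnA had 529.6 and 630.1 CPM in MU10, against 1.86 and 0.996 CPM in MU17 (log2 difference 8.67 ± 1.16, adjusted p = 0.002), and MtnE had 77.6 and 152 CPM in MU10, against 0.825 and 0.551 CPM in MU17 (log2 difference 7.38 ± 0.96, adjusted p = 0.0017). MU10 had the highest mean of both genes among the 5 strains and MU17 the lowest, but at MtnE MU26 replicate 2, with 111 CPM, lay above MU10 replicate 1. The neighbor of MtnE, MtnD, had 19.9 and 43.9 CPM in MU10, against 1.99 and 1.02 CPM in MU17 (log2 difference 4.41 ± 0.80, adjusted p = 0.0074). The call of MtnD was lost without MU17 replicate 2, at a log2 difference of 3.98 (adjusted p = 0.058, 2.0e-09 to 0.058 over the alternatives), and without MU10 replicate 2 its value was 3.73. Zip89B, of a family of zinc and iron importers, differed in the opposite direction, with 0.281 and 0.147 CPM in MU10, against 16.6 and 24.8 CPM in MU17 (log2 difference -6.53 ± 0.43, adjusted p = 5.3e-05).

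Of the 12 tested genes for iron handling and metallothioneins together, 6 were called higher in MU10 and 1 higher in MU17 (58.3%, against 19% of all tested genes). The ferritin subunit genes Fer1HCH and Fer2LCH, which lie next to each other and store iron together, had log2 differences of 0.72 ± 0.13 and 0.67 ± 0.13. The call of Fer1HCH was lost without MU17 replicate 2 (0.57), and that of Fer2LCH without MU17 replicate 2 (0.53) and without MU10 replicate 2 (0.63). This list had 6 calls with MU10 replicate 1 left out, 5 with MU10 replicate 2 left out, 7 with MU17 replicate 1 left out and 3 with MU17 replicate 2 left out.

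Pdk, the kinase that switches off pyruvate dehydrogenase and so the entry of pyruvate into the citric acid cycle, had 627 and 512 CPM in MU10, against 39.6 and 29.7 CPM in MU17 (log2 difference 4.04 ± 0.30, adjusted p = 1.3e-04). MU12, at 262 and 460 CPM, and MU14, at 443, 388 and 468 CPM, lay below both MU10 libraries but far above MU17. MU26, at 38.7 ± 6.3 CPM, was close to the level of MU17. Of 21 tested citric acid cycle genes, 6 were called higher in MU10 and 0 higher in MU17, with a median log2 difference of 0.34. This was 28.6% of the list, against 19% of all tested genes and 25.7% of those at 100 CPM or more. ScsbetaG, a subunit of succinyl-CoA synthetase, had 316 and 339 CPM in MU10, against 157 and 127 CPM in MU17 (log2 difference 1.20 ± 0.17, adjusted p = 0.0027) and was the single member kept in all fits without a library. The list had 2 calls with MU10 replicate 1 left out, 1 with MU10 replicate 2 left out, 3 with MU17 replicate 1 left out and 1 with MU17 replicate 2 left out.

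The 9 tested genes of glycogen and trehalose metabolism had a median log2 difference of 0.90. Of them, 3 were called higher in MU10 and 0 higher in MU17 (33.3%, against 19% of all tested genes). Tps1, which makes trehalose, the blood sugar of insects, had 857 and 912 CPM in MU10, against 345 and 257 CPM in MU17 (log2 difference 1.56 ± 0.40, adjusted p = 0.028). All 3 calls were lost in the fits that left out MU10 replicate 1, MU10 replicate 2 or MU17 replicate 2, and the value of Tps1 was then 1.60, 1.51 and 1.34. It was also not called without MU17 replicate 1 (1.76), where 1 member of the list was called. Of 17 tested genes of glycolysis and its reverse, 4 were called higher in MU10 and 1 higher in MU17. The latter was Ldh for lactate dehydrogenase, with 0.626 and 0.471 CPM in MU10, against 1.56 and 1.12 CPM in MU17. The share called, 29.4%, was near the 25.7% of all tested genes at 100 CPM or more, a level that 11 of the 17 reached. None of these 5 calls was kept in all 4 fits, which had 0 calls with MU10 replicate 1 left out, 2 with MU10 replicate 2 left out, 1 with MU17 replicate 1 left out and 0 with MU17 replicate 2 left out. The maltase gene Mal-A6 had 625 and 618 CPM in MU10, against 217 and 273 CPM in MU17 (log2 difference 1.34 ± 0.19, adjusted p = 0.0026).

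Among genes of amino acid and one-carbon metabolism, 6 of 20 tested members were called higher in MU10 and 1 higher in MU17. This was 35% of the list, against 19% of all tested genes and 25.7% of those at 100 CPM or more. The median log2 difference was 0.68, and 11 of the 20 were at 100 CPM or more. P5CS, named outside this list, makes the precursor of proline and ornithine and had 1245 and 1304 CPM in MU10, against 534 and 422 CPM in MU17 (log2 difference 1.41 ± 0.18, adjusted p = 0.0016). Oat, which interconverts ornithine and that same precursor, was higher in MU17, at 1036 and 919.8 CPM in MU10, against 2050.2 and 2502 CPM in MU17 (log2 difference -1.22 ± 0.21, adjusted p = 0.0057). The call of Oat was lost without MU10 replicate 2 (-1.14, adjusted p = 0.051, 2.2e-06 to 0.051 over the alternatives). Gs2, a glutamine synthetase, had 57.2 and 103 CPM in MU10, against 5.64 and 13.1 CPM in MU17 (log2 difference 3.10 ± 0.52, adjusted p = 0.0053), with 3.81 without MU17 replicate 2, and Ahcy, which clears the product of methylation reactions, had 140.1 and 142 CPM in MU10, against 68.3 and 72.8 CPM in MU17 (log2 difference 0.999 ± 0.15, adjusted p = 0.0036). The list had 4 calls with MU10 replicate 1 left out, 2 with MU10 replicate 2 left out, 5 with MU17 replicate 1 left out and 3 with MU17 replicate 2 left out.

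Lipid genes did not share a direction. Of 15 tested genes of lipid storage and lipolysis, 4 were called higher in MU10 and 2 higher in MU17, and of 16 tested genes of fatty acid synthesis and desaturation 2 were called in each direction. The shares called were 40% and 25%, against 19% of all tested genes. Calls in the lists numbered 1 and 1 with MU10 replicate 1 left out, 3 and 2 with MU10 replicate 2 left out, 2 and 1 with MU17 replicate 1 left out, and 4 and 1 with MU17 replicate 2 left out. Pect, which makes the activated head group of phosphatidylethanolamine, the main membrane phospholipid of the fly, had 450.3 and 464 CPM in MU10, against 167 and 222 CPM in MU17 (log2 difference 1.23 ± 0.22, adjusted p = 0.0073). Mondo, a transcription factor that responds to sugar with its partner Mlx, was higher in MU17, at 84.3 and 79.3 CPM in MU10, against 174 and 222 CPM in MU17 (log2 difference -1.28 ± 0.16, adjusted p = 0.0016). Lpin, the phosphatidate phosphatase that leads to triglycerides, had 345 and 264 CPM in MU10, against 111 and 55.2 CPM in MU17 (log2 difference 1.87 ± 0.35, adjusted p = 0.0083), and its call was lost without MU10 replicate 1 (1.67, adjusted p = 0.051, 3.6e-06 to 0.051 over the alternatives).

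Adh, the alcohol dehydrogenase with which larvae oxidize ethanol from fermenting food, had 899 and 752 CPM in MU10, against 269 and 149 CPM in MU17 (log2 difference 1.98 ± 0.39, adjusted p = 0.01). Adhr had 2602 and 2115 CPM in MU10, against 757 and 423 CPM in MU17 (log2 difference 2.00 ± 0.38, adjusted p = 0.0092). The annotation gives both genes the same span on chromosome 2L, 14615552 to 14618902, and their reads cannot be fully told apart, so the pair counts as 1 locus. Both calls were lost without MU10 replicate 1 and without MU17 replicate 2. The value of Adh was then 1.85 and 1.60, and that of Adhr 1.84 and 1.62.

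The storage proteins that make up much of the export of the larval fat body were mostly not called in the full fit. Fbp2, an abundant fat body protein of the alcohol dehydrogenase family, had 32828 and 30865 CPM in MU10, against 18553 and 20479 CPM in MU17 (log2 difference 0.71 ± 0.11, adjusted p = 0.0034), and it was the single call among 6 tested storage protein genes. The hexamerin gene Lsp2 had 23175 and 23214 CPM in MU10, against 26949 and 20464 CPM in MU17 (log2 difference -0.03 ± 0.13, adjusted p = 0.89), with overlapping strains. The Lsp1 genes were low in MU17 replicate 2. Lsp1alpha had 7429.5 and 8573 CPM in MU10, against 7005 and 1276 CPM in MU17 (log2 difference 0.95 ± 0.68, adjusted p = 0.37), and Lsp1beta had 20401 and 23420.3 CPM in MU10, against 21558 and 4702 CPM in MU17 (log2 difference 0.74 ± 0.66, adjusted p = 0.47). Without MU17 replicate 1 the log2 difference of Lsp1alpha was 2.63 and it was called (adjusted p = 0.024, 0.024 to 0.87 over the alternatives), while without MU17 replicate 2 it was 0.18. Those of Lsp1beta were 2.20 and 0.01, with neither called. The difference between the MU17 libraries exceeded that between MU10 and MU17 replicate 1 at both genes.

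Of 33 tested aminoacyl-tRNA synthetase genes, which charge tRNAs with amino acids, 1 was called higher in MU10 and 11 higher in MU17 (36.4%, against 19% of all tested genes), with a median log2 difference of -0.48. TrpRS had 6.72 and 5.59 CPM in MU10, against 14.5 and 15.1 CPM in MU17 (log2 difference -1.27 ± 0.14, adjusted p = 8.3e-04), and AlaRS had 17.9 and 18.1 CPM in MU10, against 38.9 and 38.7 CPM in MU17 (log2 difference -1.10 ± 0.11, adjusted p = 6.4e-04). SerRS had 15.8 and 16.3 CPM in MU10, against 27.6 and 28.3 CPM in MU17 (log2 difference -0.80 ± 0.11, adjusted p = 0.002), and the bifunctional GluProRS had 18.4 and 15.9 CPM in MU10, against 29.9 and 32.3 CPM in MU17 (log2 difference -0.86 ± 0.14, adjusted p = 0.004). In each of these 4 genes the MU10 libraries agreed closely and lay below both MU17 libraries. The exception was TyrRS, with 58.2 and 60.1 CPM in MU10, against 37.8 and 36.4 CPM in MU17 (log2 difference 0.67 ± 0.11, adjusted p = 0.0048). The list had 6 calls with MU10 replicate 1 left out, 5 with MU10 replicate 2 left out, 7 with MU17 replicate 1 left out and 8 with MU17 replicate 2 left out, of which 1 in each fit was higher in MU10.

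Of 83 tested cytosolic ribosomal protein genes, 18 were called higher in MU10 and 2 higher in MU17, with a median log2 difference of 0.23. Since 79 of the 83 were at 100 CPM or more, their share of 24.1% and their median lay near the 25.7% and 0.24 of all tested genes at that level, and upper-quartile scaling gave 4 and 2 such calls. The list was reduced to 4 calls with MU10 replicate 1 left out, 4 with MU10 replicate 2 left out, 4 with MU17 replicate 1 left out and 6 with MU17 replicate 2 left out. The neighboring copies RpS14a and RpS14b, which code for the same ribosomal protein, were called in opposite directions. RpS14a had 269 and 285 CPM in MU10, against 625 and 605 CPM in MU17 (log2 difference -1.15 ± 0.14, adjusted p = 0.0011), and RpS14b had 449 and 492 CPM in MU10, against 206 and 211 CPM in MU17 (log2 difference 1.18 ± 0.12, adjusted p = 6.4e-04). MU10 had the lowest mean of RpS14a and the highest mean of RpS14b among the 5 strains. Since read pairs that fit both copies were discarded, the split between the copies is uncertain. RpS21, with no such partner, had 639.9 and 711 CPM in MU10, against 424 and 383 CPM in MU17 (log2 difference 0.74 ± 0.11, adjusted p = 0.0032).

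Transcripts encoded by mitochondrial DNA were a further group on the MU10 side, examined after its values had been seen. Of 13 subunits of the respiratory chain encoded there, 7 were called higher in MU10 and 0 higher in MU17 (53.8%, against 19% of all tested genes), with a median log2 difference of 0.59, and 9 of the 13 were at 100 CPM or more. All tested genes at that level had 25.7% called, 22.2% higher in MU10, and a median of 0.24. The complex I subunit gene mt:ND1 had 1162 and 1034 CPM in MU10, against 570.5 and 593 CPM in MU17 (log2 difference 0.92 ± 0.11, adjusted p = 0.0012), and mt:Cyt-b had 3426 and 3202 CPM in MU10, against 2050.0 and 2209 CPM in MU17 (log2 difference 0.64 ± 0.10, adjusted p = 0.0038). The number of calls was 3 without MU10 replicate 1 and 5 without each of the other 3 libraries in turn. Nuclear genes for complexes I, III, IV and V had 4 of 66 tested members called higher in MU10 and 1 called higher in MU17, and none of these 5 calls was kept in all 4 fits without a library.

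**Figure D3:**
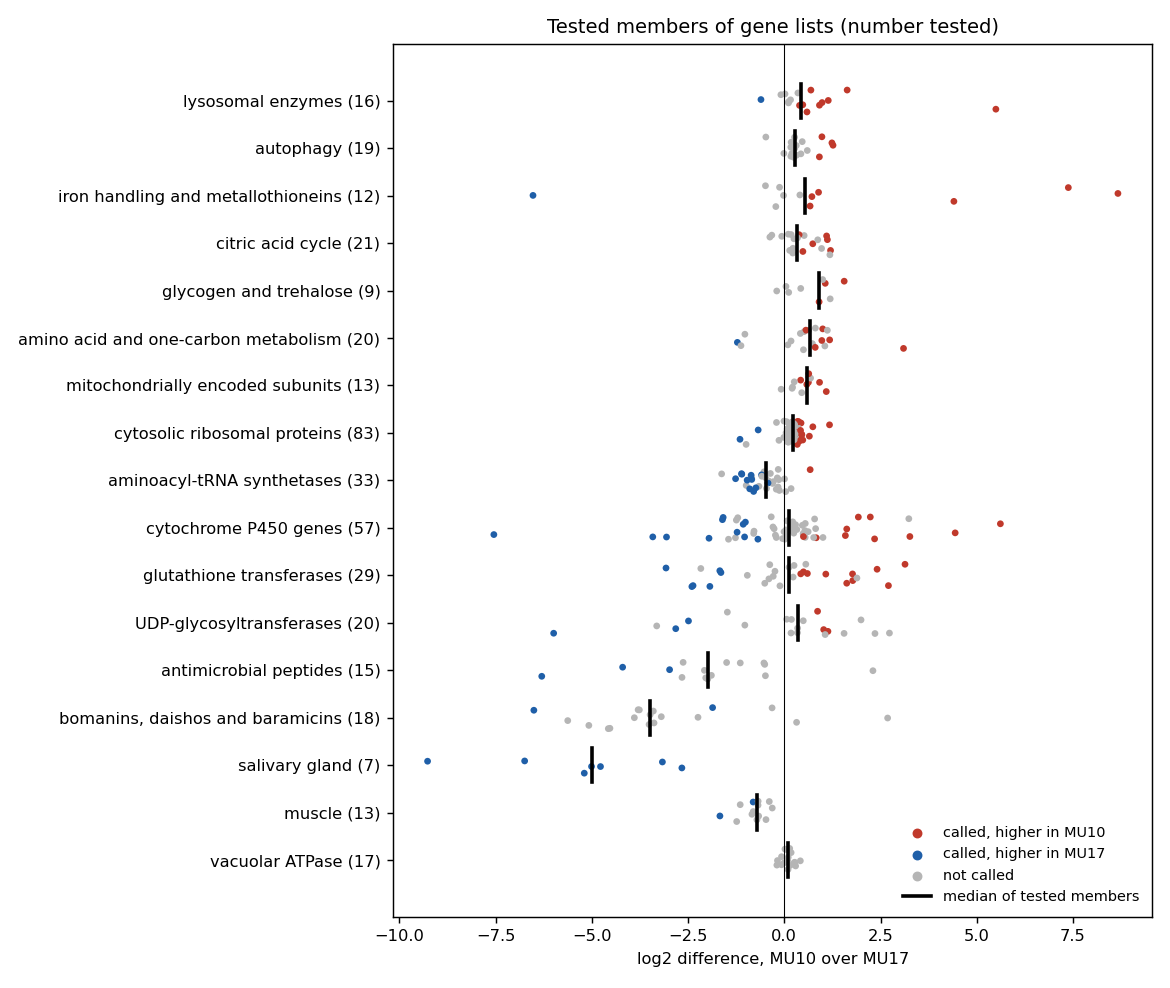
Each point is a tested member of a gene list, placed by its log2 difference, MU10 over MU17, with calls higher in MU10 in red, calls higher in MU17 in blue and uncalled members in gray. Black bars are the medians, for example 0.44 for lysosomal enzymes, -0.48 for aminoacyl-tRNA synthetases and -5.01 for salivary gland markers.

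Detoxification genes differed in both directions. Cytochrome P450 genes, whose enzymes oxidize foreign compounds, hormones and lipids, had 10 of 57 tested members called higher in MU10 and 11 called higher in MU17, with a median log2 difference of 0.13. The share called was 36.8%, against 19% of all tested genes. Cyp304a1 (chromosome 3R, 12963791 to 12965923) had 181 and 166 CPM in MU10, against 3.85 and 3.22 CPM in MU17 (log2 difference 5.61 ± 0.46, adjusted p = 2.0e-04), and Cyp4ad1 had 85.6 and 80.2 CPM in MU10, against 4.4 and 3.24 CPM in MU17 (log2 difference 4.44 ± 0.43, adjusted p = 5.3e-04). MU10 had the highest level of the 5 strains at both genes. The mitochondrial P450 genes Cyp12c1 and Cyp12e1 were called in the same direction (1.59 ± 0.26 and 1.62 ± 0.24).

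Among P450 genes called higher in MU17, Cyp6a13 (chromosome 2R, 8570499 to 8572147) had 0.194 and 0.235 CPM in MU10, against 42.8 and 37.7 CPM in MU17 (log2 difference -7.54 ± 0.33, adjusted p = 3.6e-06). MU10 lay at the bottom of a graded series, with means of 1.52 ± 0.655 CPM in MU12, 8.63 ± 0.357 CPM in MU14 and 61.8 ± 9.31 CPM in MU26. Cyp9c1 had 7.82 and 5.27 CPM in MU10, against 61 and 48.5 CPM in MU17 (log2 difference -3.06 ± 0.23, adjusted p = 1.3e-04) and was low in MU10 alone. The P450 list had 14 calls with MU10 replicate 1 left out, 9 with MU10 replicate 2 left out, 16 with MU17 replicate 1 left out and 12 with MU17 replicate 2 left out.

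Glutathione transferase genes, whose enzymes attach glutathione to reactive compounds, were called in both directions. Of 29 tested members, 10 were called higher in MU10 and 6 higher in MU17 (55.2%, against 19% of all tested genes). In the GstE cluster on 2R, the 6 neighboring tested genes GstE3, GstE5, GstE6, GstE7, GstE8 and GstE9 were all called higher in MU10, the longest such run among the tested genes. GstE3 had 1425 and 1055 CPM in MU10, against 334 and 132 CPM in MU17 (log2 difference 2.41 ± 0.54, adjusted p = 0.018), and GstE9 had 94.6 and 79.8 CPM in MU10, against 35.1 and 15.9 CPM in MU17 (log2 difference 1.77 ± 0.40, adjusted p = 0.018). None of these 6 calls was kept in all fits: that of GstE3 was lost without MU10 replicate 1 (2.18) and without MU17 replicate 2 (1.88), with 3.21 without MU17 replicate 1. That of GstE9 was lost without MU10 replicate 1 (1.65), MU10 replicate 2 (1.89) and MU17 replicate 2 (1.29), with 2.43 without MU17 replicate 1, and also in the fit of the 4 libraries alone (adjusted p = 0.0603).

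Beyond this run, GstE genes were called in both directions. GstE1, the tested gene next to the run, was higher in MU17, at 14.2 and 6.77 CPM in MU10, against 55.2 and 53.4 CPM in MU17 (log2 difference -2.37 ± 0.34, adjusted p = 0.0027), with -3.004 without MU10 replicate 1. GstE11, farther along the arm, had 26.9 and 34.2 CPM in MU10, against 4.15 and 2.8 CPM in MU17 (log2 difference 3.14 ± 0.25, adjusted p = 1.8e-04) and was the highest of the 5 strains in MU10. In the GstD cluster on 3R, GstD10 had 11.8 and 13.8 CPM in MU10, against 136 and 79.5 CPM in MU17 (log2 difference -3.07 ± 0.46, adjusted p = 0.003), GstD9 had 2.81 and 2.65 CPM in MU10, against 17.6 and 11.2 CPM in MU17 (log2 difference -2.40 ± 0.41, adjusted p = 0.0057) and GstD1 had 185 and 127 CPM in MU10, against 658 and 532 CPM in MU17 (log2 difference -1.93 ± 0.31, adjusted p = 0.0044). All 3 were called higher in MU17 and lie next to each other. The GstE and GstD families are tandem copies, and counts of near-identical members are uncertain because read pairs fitting more than 1 gene were discarded. The list had 6 calls with MU10 replicate 1 left out, 8 with MU10 replicate 2 left out, 11 with MU17 replicate 1 left out and 8 with MU17 replicate 2 left out.

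**Figure D4:**
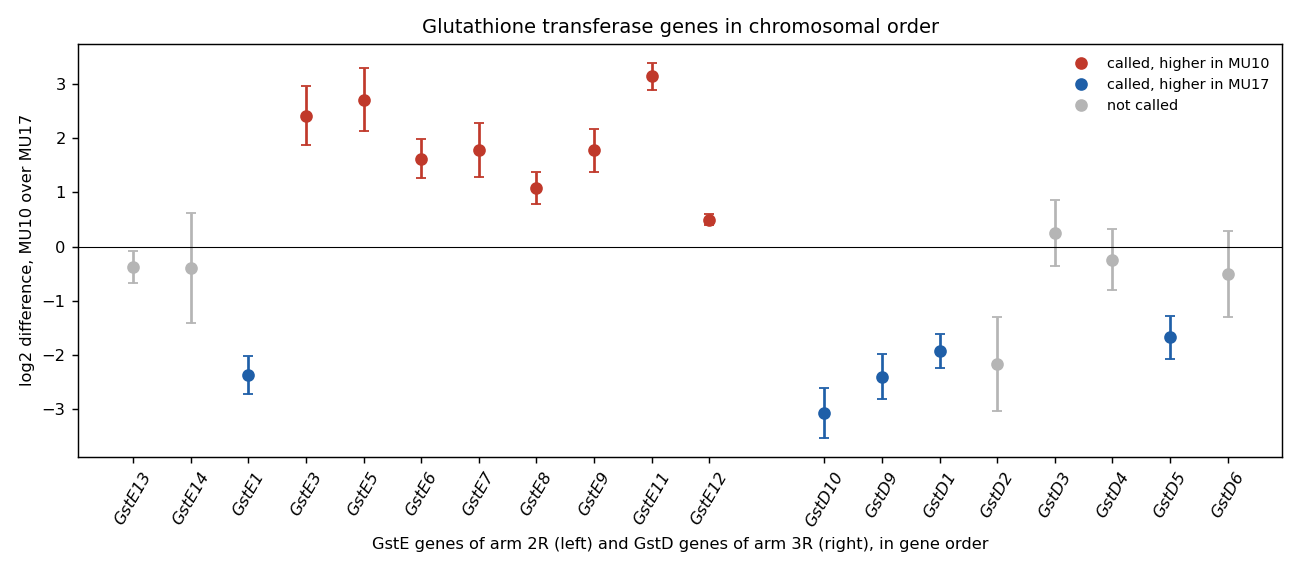
Log2 differences, MU10 over MU17, of the tested GstE genes of arm 2R and GstD genes of arm 3R, set in the order in which they lie on the arm and not by distance. Points are fitted values with bars of 1 standard error, red where called higher in MU10, blue where called higher in MU17 and gray where not called. The run of GstE3 to GstE9 lies above 0 and GstD10, GstD9 and GstD1 lie below it, with GstD10 at -3.07.

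UDP-glycosyltransferase genes, which add sugars to small compounds for excretion, had 3 of 20 tested members called in each direction (30% in all, against 19% of all tested genes). Ugt37A3 (chromosome 3R, 12741958 to 12743680) had 2.72 and 2.5 CPM in MU10, against 172 and 161 CPM in MU17 (log2 difference -5.99 ± 0.42, adjusted p = 9.3e-05), and Ugt302C1 had 9.13 and 8.62 CPM in MU10, against 76.1 and 49.4 CPM in MU17 (log2 difference -2.82 ± 0.39, adjusted p = 0.0022). MU17 had the highest level of the 5 strains at both genes. In the other direction Ugt36D1 had 525 and 501 CPM in MU10, against 225 and 242 CPM in MU17 (log2 difference 1.13 ± 0.19, adjusted p = 0.0049). The list had 3 calls with MU10 replicate 1 left out, 3 with MU10 replicate 2 left out, 4 with MU17 replicate 1 left out and 4 with MU17 replicate 2 left out.

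Calls were spread over all chromosome arms, with 16.9% of tested genes called on X, 21.6% on 2L, 17.8% on 2R, 19.3% on 3L and 18.6% on 3R. On the small chromosome 4 19 of 71 tested genes were called (26.8%), 6 higher in MU10 and 13 higher in MU17. In all, 13 runs of at least 4 neighboring tested genes were called in the same direction, and they held 58 genes. A run on 3R held CG18542, Unc-115b, p24-2, CG32939 and Unc-115a, all called higher in MU10. Unc-115b, which codes for an actin-binding protein, had 32.4 and 34.9 CPM in MU10, against 4.77 and 5.32 CPM in MU17 (log2 difference 2.74 ± 0.28, adjusted p = 6.5e-04), and its relative Unc-115a had 89 and 82.4 CPM in MU10, against 20.8 and 20.5 CPM in MU17 (log2 difference 2.05 ± 0.21, adjusted p = 6.0e-04). MU17 was the lowest of the 5 strains at both genes, and as related copies their counts share the uncertainty given for the Gst genes. The call of CG18542 was lost with any of MU10 replicate 1 (0.96), MU10 replicate 2 (1.19) and MU17 replicate 2 (0.74) left out, and in the fit of the 4 libraries alone. Another run, on 3R, included Cyp304a1 with grsm, Spc25 and CG14384, and a run on 2R held the serpin genes Spn42Db, Spn42Dc, Spn42Dd and Spn42De, both called higher in MU10.

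Antimicrobial peptides and related effectors of the Toll and Imd pathways were highest in MU17 replicate 1. All 15 tested antimicrobial peptide genes had more CPM in MU17 replicate 1 than in MU17 replicate 2, and 14 of the 15 were above both MU10 libraries in replicate 1 but 6 in replicate 2. Over all tested genes, 49.1% were higher in replicate 1 than in replicate 2 of MU17, 43.1% were above both MU10 libraries in MU17 replicate 1 and 43.2% in replicate 2. The 18 tested bomanin, daisho and baramicin genes, which code for short secreted immune peptides mostly under Toll control, showed the same, with 18 higher in replicate 1 and 17 above both MU10 libraries in replicate 1 but 4 in replicate 2.

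Drs, the antifungal peptide drosomycin, had 538 and 950.1 CPM in MU10, against 9018 and 2718 CPM in MU17 (log2 difference -2.98 ± 0.75, adjusted p = 0.027). Its call was lost in the fit of the 4 libraries alone (adjusted p = 0.0607) and without MU10 replicate 1 (-2.62), MU10 replicate 2 (-3.45) and MU17 replicate 1 (-1.89), and its value was -3.61 without MU17 replicate 2. Both MU17 libraries lay above both MU10 libraries, although the MU17 libraries differed from each other by more than those of MU10 did. Def, the defensin gene, had 0.108 and 0.118 CPM in MU10, against 15.8 and 2.37 CPM in MU17 (log2 difference -6.30 ± 1.06, adjusted p = 0.0052). Its call was lost with limma-voom (adjusted p = 0.13) and without MU10 replicate 1 (-6.23), and the value was -4.39 without MU17 replicate 1 and -7.12 without MU17 replicate 2. MU10 and the 3 remaining strains had less than 1 CPM of Def on average, so both MU17 libraries were above all others.

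The libraries of MU10 and MU17 did not overlap for 7 of 15 antimicrobial peptide genes and 4 of 18 bomanin, daisho and baramicin genes, against 65.5% of all tested genes. BaraA2 had 22.9 and 202 CPM in MU10, against 2156 and 187 CPM in MU17 (log2 difference -3.38 ± 1.61, adjusted p = 0.18), and BomS3 had 4.92 and 125 CPM in MU10, against 1808 and 118 CPM in MU17 (log2 difference -3.90 ± 2.35, adjusted p = 0.28). Without MU17 replicate 1 these values were -0.76 and -0.89, and without MU10 replicate 2 they were -5.67 and -7.61. MU10 replicate 2 and MU17 replicate 2 had similar levels at both genes, with MU10 replicate 1 below and MU17 replicate 1 above them. The antimicrobial peptide list had 3 calls (20%, near the 19% of all tested genes), all higher in MU17, and a median log2 difference of -1.99, which was -0.19 with 1 call without MU17 replicate 1. It had 0 calls with MU10 replicate 1 left out, 1 with MU10 replicate 2 left out and 3 with MU17 replicate 2 left out. The bomanin, daisho and baramicin list had 2 calls (11.1%) and a median of -3.499, which was -0.40 with 0 calls without MU17 replicate 1. It had 0 calls with either MU10 library left out and 3 with MU17 replicate 2 left out.

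Upstream of the effectors, the signalling genes of the Toll and Imd pathways had 2 of 21 tested members called higher in MU10 and 3 higher in MU17. The share called, 23.8%, was near the 19% of all tested genes, which also split about evenly (9.21% higher in MU10 and 9.76% higher in MU17). This list had 2 calls with MU10 replicate 1 left out, 3 with either MU10 replicate 2 or MU17 replicate 1 left out and 4 with MU17 replicate 2 left out. SPE, the protease that activates the Toll ligand, had 14.7 and 21.4 CPM in MU10, against 145 and 37.8 CPM in MU17 (log2 difference -2.34 ± 0.51, adjusted p = 0.015). Its call was lost in the fit of the 4 libraries alone (adjusted p = 0.098) and without MU10 replicate 1 (-2.10) and MU10 replicate 2 (-2.63), and its value was -1.09 with MU17 replicate 1 left out and -3.02 with MU17 replicate 2 left out. The adaptor gene tub of the Toll pathway had 67.9 and 69.4 CPM in MU10, against 37.1 and 35 CPM in MU17 (log2 difference 0.93 ± 0.15, adjusted p = 0.0045), and Tab2, which acts with the kinase Tak1 in the Imd pathway, had 39.1 and 41.6 CPM in MU10, against 68.6 and 68.7 CPM in MU17 (log2 difference -0.77 ± 0.12, adjusted p = 0.0039). At these 2 genes the replicates of each strain agreed. The gene spirit, a serine protease that acts in the cascade before Toll, had 610.1 and 695 CPM in MU10, against 124 and 67.4 CPM in MU17 (log2 difference 2.77 ± 0.26, adjusted p = 4.5e-04).

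More genes were far higher in MU17 replicate 1 than in MU17 replicate 2 than the reverse. Of the tested genes that reached 1 CPM in the higher replicate, 150 had at least 4 times the CPM in MU17 replicate 1 that they had in MU17 replicate 2, and 18 had the reverse. In MU10 these numbers were 23 for replicate 1 and 36 for replicate 2. With the 88 tested genes of 6 immune lists left out (antimicrobial peptides, bomanins and their relatives, peptidoglycan recognition, thioester proteins, Turandot and JAK-STAT, and Toll and Imd signaling), the numbers were 18 and 21 in MU10, and 110 and 18 in MU17. Of the 150 genes, 26 were among the calls higher in MU17. One of them was PH4alphaPV, a prolyl 4-hydroxylase gene (chromosome 3R, 30646106 to 30648551), with 0 and 0 CPM in MU10, against 176 and 2.8 CPM in MU17. The means of MU12, MU14 and MU26 were also near 0, at 0.0587, 0.0947 and 0.0317 CPM. PH4alphaPV was at least 2396-fold lower in MU10 on the mean of the MU17 libraries, but at least 74.9-fold lower on MU17 replicate 2 alone, since most of the mean came from replicate 1. Its call (adjusted p = 0.016) was lost without MU10 replicate 1 (adjusted p = 0.082) and MU10 replicate 2 (adjusted p = 0.075), with 4.8e-06 to 0.42 over the alternatives. The related PH4alphaEFB, expressed in all strains, was called in the opposite direction, with 80.5 and 73.5 CPM in MU10, against 33.9 and 32.5 CPM in MU17 (log2 difference 1.21 ± 0.15, adjusted p = 0.0012).

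**Figure D5:**
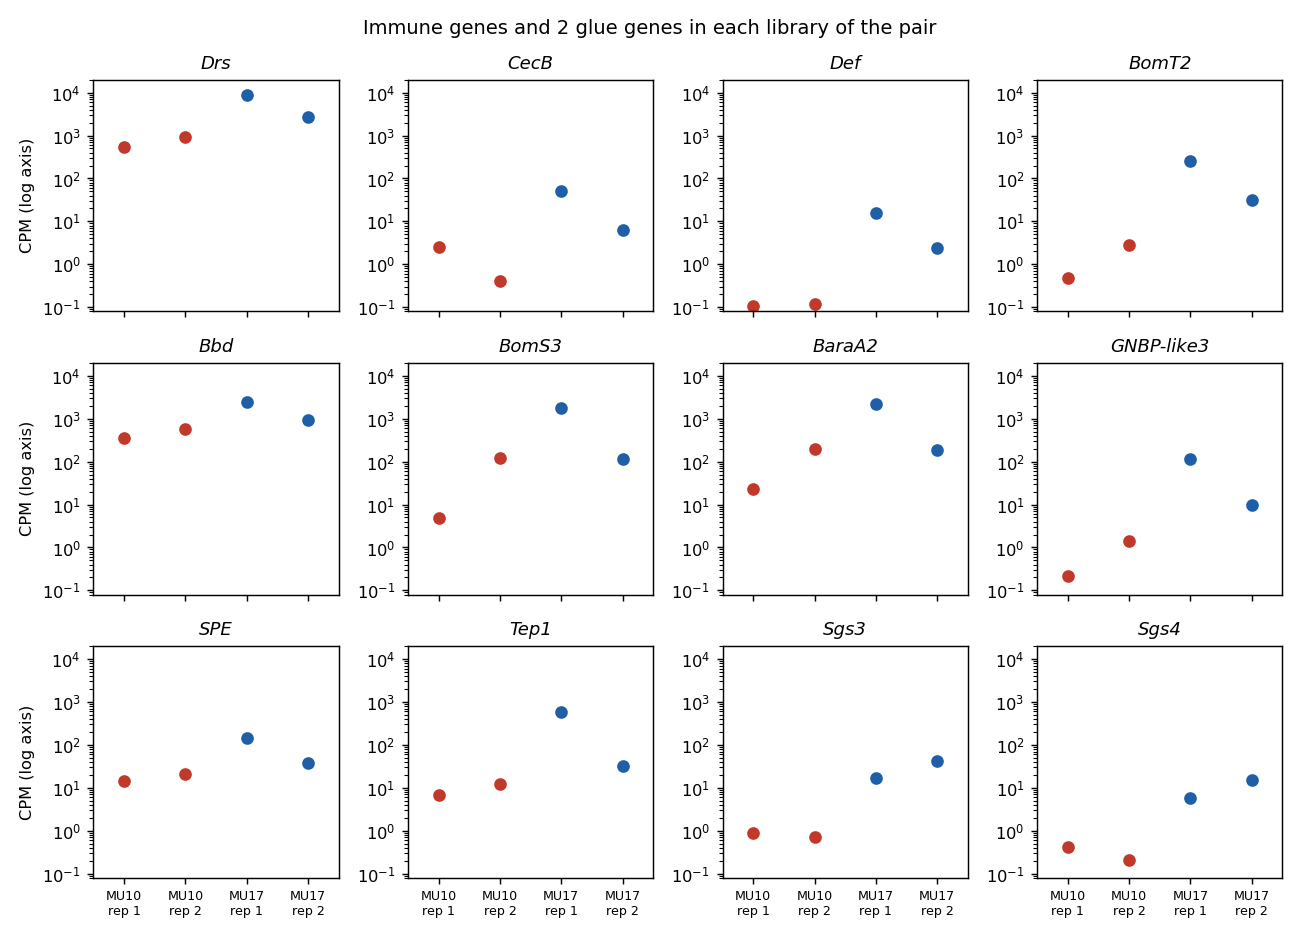
Levels of 10 immune genes and the glue genes Sgs3 and Sgs4 in each library of the pair (CPM, log axis), MU10 in red and MU17 in blue. MU17 replicate 1 is the highest library at each immune gene shown, for example 9018 CPM for Drs, while MU17 replicate 2 is the highest at both glue genes.

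Markers of the salivary gland, the organ that makes the glue with which the pupa attaches, were higher in MU17 than in MU10. All 7 tested markers were called, 4 of them in all fits without a library, with a median log2 difference of -5.01 and log2 differences between -9.27 and -2.66. Their summed level was 6.22 and 3.68 CPM in MU10, against 52.1 and 146 CPM in MU17, and Sgs1 had 0 counts in both MU10 libraries. Sgs3 had 0.885 and 0.706 CPM in MU10, against 17.2 and 41.8 CPM in MU17 (log2 difference -5.20 ± 0.78, adjusted p = 0.0031), with -4.43 without MU17 replicate 2, and Sgs4 had 0.41 and 0.206 CPM in MU10, against 5.87 and 14.8 CPM in MU17 (log2 difference -5.01 ± 0.83, adjusted p = 0.005), with -5.63 without MU10 replicate 1 and -4.21 without MU17 replicate 2. With limma-voom 3 of the 7 calls remained, and those of Sgs4 (adjusted p = 0.058), Sgs5, Sgs8 and Eig71Ee were lost. The higher of the MU17 libraries was replicate 2, the reverse of the immune effectors. High levels were not particular to MU17, since MU14 overlapped it, with 43.5, 10.5 and 16.4 CPM of Sgs3 and 12.8, 3.49 and 4.23 CPM of Sgs4. MU10 was the lowest of the 5 strains at both genes. Sgs7, Sgs8 and Sgs3 also formed a run of neighboring calls with CG6163 and chrb on 3L. The list had 4 calls with MU10 replicate 1 left out, 5 with MU10 replicate 2 left out, 7 with MU17 replicate 1 left out and 5 with MU17 replicate 2 left out.

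Of 13 tested muscle markers 0 were called higher in MU10 and 2 higher in MU17 (15.4%, against 19% of all tested genes), and neither call was kept in all fits without a library. All 13 were detected in both strains, and all 13 had log2 differences toward MU17, from -1.67 to -0.31 with a median of -0.71. Their summed level was 36.3 and 50.4 CPM in MU10, against 119 and 90.2 CPM in MU17. The called members were bt and sls, both for giant muscle proteins and both higher in MU17. The call of bt (-1.67 ± 0.30) was lost without MU10 replicate 1 (-1.41), and that of sls (-0.81 ± 0.22) was lost without each of the 4 libraries in turn, with values from -1.0 to -0.63. Hemocyte markers had a summed level of 174 and 106 CPM in MU10, against 114 and 93.5 CPM in MU17, with 0 of 7 called by edgeR, 1 at an unadjusted p below 0.05 and 1 called by DESeq2. The part of salivary gland or muscle RNA in other differences between the strains was not tested.

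Groups with few or no calls included the proteasome, with 1 of 33 tested genes called, and insulin and growth signaling, with 1 of 24, both higher in MU10. Mitochondrial ribosomal proteins had 2 of 72 tested genes called higher in MU10 and 4 called higher in MU17, below the 19% of all tested genes. The share called of the nuclear genes for complexes I, III, IV and V was also below it, at 7.58%. These shares describe this pair at 2 libraries a strain, and a gene that was not called is not shown to be equal between MU10 and MU17.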

How the data were processed

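The deposited file held raw read counts per gene for 11 libraries. According to the study's methods, the authors sequenced poly-A RNA as paired reads, mapped them with NextGenMap to the FlyBase transcriptome, discarded pairs that fitted more than 1 gene, and summed the rest per gene, so counts of near-identical copies are uncertain. Groups follow the strain labels. Gene names and positions are from the Ensembl annotation of BDGP6.54, which matched 13843 of 13931 genes by FlyBase identifier and 75 by CG number. Genes averaging fewer than 15 counts over the libraries (5516) were removed, leaving 8415. The fit used edgeR 4.0.16 in R 4.3.3 with TMM scaling, all 11 libraries and a coefficient for each strain. MU10 over MU17 was tested by quasi-likelihood, adjusted by the method of Benjamini and Hochberg, and called below 0.05. The common biological coefficient of variation was 0.225. Total counts were between 35748897 and 49582725 in the pair. Replicates varied beyond counting error (chi-square over degrees of freedom 54.0 in MU10 and 332 in MU17), and floors of 3 counts cover counting error alone.

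The comparison, the gene lists and the rules were chosen with earlier results of these data known, so no list was tested. Named were the 8 largest differences in each direction among called genes without overlap and with at least 10 CPM, the 15 most abundant called genes, up to 4 called members a list, the 4 longest runs of neighbors, genes at 0 in one strain, and genes named before for this pair. Genes with the smallest adjusted p, further list and run members, and further calls kept without each library were added after their values were seen. The text gives a part of these. In a test on simulated counts for MU10 against MU17 (8415 genes), 37 of 100 genes with a 2-fold change were found, as were 78 of 100 with a 4-fold change, and 7 of the 122 calls were false. Far fewer genes changed there than the 1596 called in the data, and each gene was given the same spread in all strains. These rates may therefore differ from those of the data. Alternatives were RLE and upper-quartile scaling, no filter, filterByExpr, DESeq2 1.42.0, limma-voom (limma 3.58.1), the 4 libraries alone, a replicate block, and leaving out each library.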

Additional observations from a re-analysis of the deposited data

How the results depend on the processing

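No called gene changed its direction under any alternative run, while the number of calls depended on the libraries used. Of the 1596 calls, 1562 were made again in the same direction with RLE scaling, 1429 with upper-quartile scaling, 1339 with no filter, 1543 with filterByExpr, 1589 with DESeq2 and 1467 with limma-voom, and DESeq2 made 2073 calls in all. A fit of the 4 libraries alone made 1120 calls, 505 of them higher in MU17, and kept 936. Leaving out 1 library gave 662 to 1032 calls, 314 to 462 higher in MU10 and 312 to 570 higher in MU17, with 505 to 762 of at least 2-fold, and the lone library of a strain was then assumed to vary like the other strains. These fits had fewer samples. The replicate numbers were not treated as pairs. Deviations of same-numbered MU10 and MU17 libraries had a correlation of -0.22 over genes, but 2 libraries a strain cannot show whether same-numbered libraries were handled together. A replicate block gave 1184 calls, 562 higher in MU10 and 622 higher in MU17. With crossed numbers, chosen after seeing the data, the block gave 1546 calls, 756 higher in MU10 and 790 higher in MU17.

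The uncalled Fbp1 and Lsp2 had differences near 0 whose sign varied. Fbp1 had 0.0080 with no filter, 0.0023 with filterByExpr and -0.093 to 0.069 on leaving out a library, and Lsp2 had -0.23 to 0.16. The cause was not tested. With 2 libraries a strain, small differences and genes under about 1 CPM were little resolved, and the 15-count filter leaves genes with lower counts undescribed.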
